A study of Mus musculus with 2 samples.

Results

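The connexin genes Gja1, Gja4, Gja5, Gjb1, Gjb2, Gjb5 and Gjc1 were described in the whole uterus of C57BL/6 mice on day 4 of pregnancy. They were chosen by symbol, and all 7 are among the 22740 genes of the deposited table. RNA was sequenced from 2 uteri, 1 library per animal, and both libraries carry the same label for strain, tissue and day, so the study has 1 group, no treatment or genotype contrast and no untreated control. The whole organ was extracted, so values average over epithelium, stroma, muscle, vessels and blood cells, and fewer cells of a type cannot be told apart from less RNA per cell. The titles call the animals wild type (WT) and number them, and they appear here as uterus 1 and uterus 2. Levels are the authors' RPKM, a read number divided by transcript length and library size, so that genes of unlike length can be compared.

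Connexins are membrane proteins that assemble into rings called connexons. Rings of neighbouring cells dock to form gap junction channels, through which ions and small molecules pass directly from cell to cell. Connexin genes are grouped by sequence into alpha (Gja), beta (Gjb), gamma (Gjc), delta (Gjd) and epsilon (Gje) subfamilies. In the rodent uterus, connexin 43 (Gja1) is known from stromal, decidual and muscle cells, connexin 26 (Gjb2) from the luminal epithelium around implantation, and connexins 37 (Gja4) and 40 (Gja5) from blood vessel endothelium. Connexin 45 (Gjc1) is known from smooth muscle and vessels, connexin 32 (Gjb1) from liver and Schwann cells, and connexin 31.1 (Gjb5) from stratified epithelium and placenta. On day 4 the mouse uterus enters its receptive phase, shortly before implantation begins.

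The start-site region of 4 members is shown here because their levels, given below, stand at the top of the 7 (Gja1) and among its 3 low beta connexins (Gjb2), or differ between members on 1 strand of chromosome 4 (Gja4, Gjb5). Each runs from 250 bases before to 50 after the start of the gene in the RefSeq table of build GRCm38.p6, read 5′ to 3′ on the gene's own strand. The RefSeq table held such a region for 6 of the 7 members, and Gjc1 was not matched. Capitals mark 5 motifs looked for on both strands: AP-1 (TGANTCA), the cyclic AMP response core (TGACGT), the GC box (GGGCGG), the TATA box (TATAAA) and the CCAAT box (CCAAT). No 2 marked motifs overlap in these 4 regions.
Gja1, highest member, chr10:56377050-56377349, plus strand: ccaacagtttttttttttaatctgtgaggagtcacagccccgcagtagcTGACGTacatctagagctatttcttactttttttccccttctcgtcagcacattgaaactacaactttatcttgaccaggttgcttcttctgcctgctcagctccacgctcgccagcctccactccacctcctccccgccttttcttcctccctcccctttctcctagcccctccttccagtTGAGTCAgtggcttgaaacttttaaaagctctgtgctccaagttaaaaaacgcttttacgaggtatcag
Gjb2, a low beta member, chr14:57104653-57104952, minus strand: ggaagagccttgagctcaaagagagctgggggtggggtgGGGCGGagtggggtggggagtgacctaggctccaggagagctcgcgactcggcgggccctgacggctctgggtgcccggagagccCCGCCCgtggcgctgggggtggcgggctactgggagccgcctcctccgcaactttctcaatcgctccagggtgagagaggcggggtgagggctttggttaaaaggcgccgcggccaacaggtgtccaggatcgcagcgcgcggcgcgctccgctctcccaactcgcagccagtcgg
Gja4, higher of the pair on chromosome 4, chr4:127313990-127314289, minus strand: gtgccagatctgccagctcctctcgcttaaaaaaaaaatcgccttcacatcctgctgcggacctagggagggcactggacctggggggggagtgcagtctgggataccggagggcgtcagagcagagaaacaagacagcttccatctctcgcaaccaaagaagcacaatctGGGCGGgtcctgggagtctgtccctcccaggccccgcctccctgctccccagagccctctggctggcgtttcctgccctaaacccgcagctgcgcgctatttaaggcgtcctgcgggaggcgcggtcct
Gjb5, lower of the pair on chromosome 4, chr4:127358115-127358414, minus strand: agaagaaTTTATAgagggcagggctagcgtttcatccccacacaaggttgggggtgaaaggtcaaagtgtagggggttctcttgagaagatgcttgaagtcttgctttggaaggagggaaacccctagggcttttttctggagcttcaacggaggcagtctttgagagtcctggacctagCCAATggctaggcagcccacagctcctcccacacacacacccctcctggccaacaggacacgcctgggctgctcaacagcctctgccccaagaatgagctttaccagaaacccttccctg

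Gja1 was the only one of the 6 matched members with AP-1 letters. The match TGAGTCA begins 19 bases before the start site, and a TGACGT begins 201 bases before it. Over all 32544 such regions in the table, 7.79% held an AP-1 match and 7.55% a TGACGT. GC boxes were found in Gja4, Gja5, Gjb2 and in 1 of the 4 regions listed for Gjb1, against 35.9% of all regions, and Gjb5 held a TATA box on the reverse strand 243 bases before the start (13.6% of all) and a CCAAT box 70 bases before it (37.4% of all). Regions of Gjb1 also held CCAAT and TATA letters. A full palindromic estrogen response element was found in no member's region, and 0.0707% of all regions hold one. The Gjb2 region had 27 CpG dinucleotides, against 8 in Gja1, 16 in Gja4, 3 in Gjb5 and a median of 7 over all regions. A match describes letters and no binding was measured.

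Gja1 was the main connexin message of the day 4 uterus. It lay at 65.4 (uterus 1) and 59.2 (uterus 2) RPKM, a mean of 62.3 ± 4.37 RPKM (SD, n = 2) on 778 and 782 reads. Both uteri were high, and no value of another member came near these 2. Gja1 ranked 900 among the 22740 genes by mean RPKM, above 96.0% of them. It held 61.2% ± 0.0850 (SD, n = 2) of the summed RPKM of all 20 connexin genes in the table. The gene (NM_010288) lies on chromosome 10 at 56097106 to 56110225 of build mm9, plus strand.

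Gjc1 came next, at 18.7 (uterus 1) and 18.0 (uterus 2) RPKM, a mean of 18.3 ± 0.451 RPKM (SD, n = 2) on 208 and 223 reads. The 2 uteri were nearly equal for this gene. Its channel subunit, connexin 45, has a low conductance and is the main gamma connexin of muscle. Gja1 exceeded Gjc1 by 3.39 ± 0.155-fold (SD, n = 2), and the 95% counting intervals of the 2 genes did not overlap in either uterus. Gjc1 (NM_008122) lies on chromosome 11 at 102660792 to 102666333, minus strand.

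The 2 connexins of vessel endothelium followed. Gja4, which encodes connexin 37, lay at 10.8 (uterus 1) and 7.66 (uterus 2) RPKM, a mean of 9.25 ± 2.24 RPKM (SD, n = 2) on 70 and 55 reads. Uterus 1 was the higher, and Gja4 had the widest relative spread of the 4 members above 1 RPKM. Gja5, which encodes connexin 40, lay at 5.66 (uterus 1) and 4.88 (uterus 2) RPKM, a mean of 5.27 ± 0.553 RPKM (SD, n = 2) on 69 and 66 reads. The lower Gja4 value stood above the higher Gja5 value, so the ranges did not overlap. Their ratio was 1.74 ± 0.242 (SD, n = 2), with a 95% counting interval of 1.35 to 2.71 in uterus 1 and 1.08 to 2.28 in uterus 2. The counting intervals of the 2 levels overlapped in uterus 2. Gja4 (NM_008120) lies on chromosome 4 at 126988664 to 126991283, minus strand, and Gja5 (NM_008121) on chromosome 3 at 96836325 to 96857557, plus strand.

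The 3 beta connexins lay under 1 RPKM on average. Gjb5 was at 0.459 (uterus 1) and 1.10 (uterus 2) RPKM, on 3 and 8 reads. Gjb1 was at 0.349 (uterus 1) and 0.785 (uterus 2) RPKM, on 2 and 5 reads. Both were lower in uterus 1, by a few reads. Gjb2, the connexin of the luminal epithelium around implantation, was at 0.542 (uterus 1) and 0.489 (uterus 2) RPKM, on 5 reads in each. Their means were 0.781 ± 0.455, 0.567 ± 0.309 and 0.516 ± 0.0380 RPKM (SD, n = 2) for Gjb5, Gjb1 and Gjb2. With so few reads the counting interval of Gjb2 ran from 0.176 to 1.27 RPKM in uterus 1 and from 0.159 to 1.14 RPKM in uterus 2. The genes lie on chromosome 4 at 127032053 to 127035408 (Gjb5, NM_010291), on chromosome X at 98572676 to 98580963 (Gjb1, NM_008124) and on chromosome 14 at 57717439 to 57723539 (Gjb2, NM_008125).

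**Figure D1:**
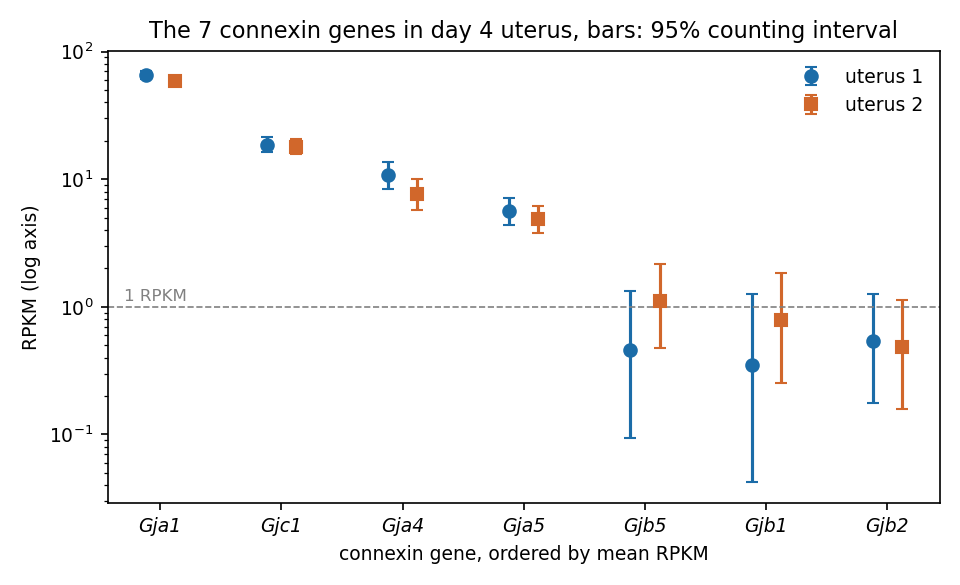
RPKM of each of the 7 connexin genes (log axis) in uterus 1 (circles) and uterus 2 (squares), with bars for the 95% counting interval of the recovered reads and a dashed line at 1 RPKM. Gja1 stands at 65.4 and 59.2 RPKM, Gjc1, Gja4 and Gja5 step down to 4.88 RPKM, and the intervals of Gjb5, Gjb1 and Gjb2 overlap each other and the line.

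The order by mean RPKM was Gja1, Gjc1, Gja4, Gja5, Gjb5, Gjb1, Gjb2. Of the 6 neighbouring pairs in that order, 4 were apart by the range of the 2 uteri. The other 2, Gjb5 with Gjb1 and Gjb1 with Gjb2, overlapped, so the 3 beta connexins have no order among themselves here. Gja5 and Gjb5 were separated by 12.3-fold in uterus 1 (95% counting interval 4.05 to 61.2, with Gjb5 at 3 reads) and by 4.42-fold in uterus 2 (2.12 to 10.7). At the ends of the order by mean, Gja1 exceeded Gjb2 by 120.5-fold in uterus 1 (51.4 to 372) and by 121.1-fold in uterus 2 (51.7 to 374).

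A gene was called detected at 1 RPKM or more in both uteri. Gja1, Gjc1, Gja4 and Gja5 were detected, 4 of the 7 members, against 58.4% of all genes in the table. Gjb5 passed in uterus 2 alone. The summed RPKM of the 7 members was 101.9 in uterus 1 and 92.1 in uterus 2, or 95.3% ± 0.211 (SD, n = 2) of that of all 20 connexin genes. By subfamily, alpha genes held 75.5% ± 1.99 and beta genes 2.45% ± 0.540 of the sum (SD, n = 2).

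Other connexin genes were read less than the 4 detected members. Gjc3, a gamma connexin of myelin-forming glia, was at 1.94 ± 0.0932 RPKM (SD, n = 2) on 27 and 28 reads. It was detected, and its mean stood above those of Gjb5, Gjb1 and Gjb2. Gje1 had 3 and 4 reads. Gja3 had 2 reads in uterus 1 and Gjd3 had 1 read in uterus 2, each with none in the other uterus. Gja6, Gja10, Gjb6, Gjd2 and Gjd4 were listed at 0 in both uteri, which allows up to 0.515 RPKM in uterus 1 (Gja10, at 3 reads).

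**Figure D2:**
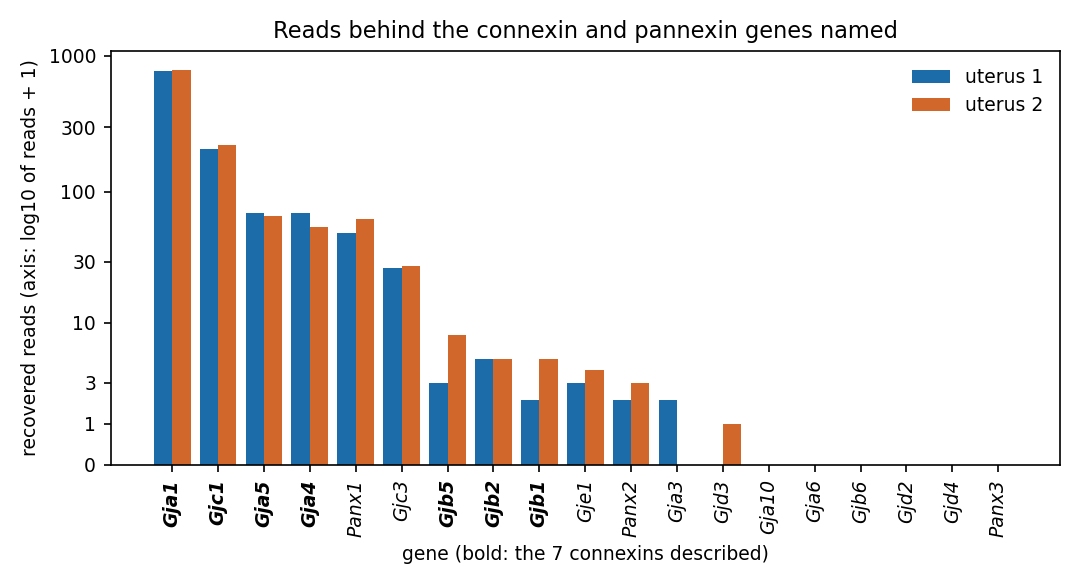
Recovered reads of the connexin and pannexin genes named in the text, in uterus 1 and uterus 2, on an axis of log10 of reads plus 1, with the 7 members in bold. Gja1 has 778 and 782 reads and Gjc1 208 and 223, whereas 6 genes have none in either uterus.

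Pannexins form large-pore membrane channels related in shape to connexons, and they were read beside the connexins. Panx1 was at 6.16 (uterus 1) and 7.13 (uterus 2) RPKM, a mean of 6.65 ± 0.689 RPKM (SD, n = 2) on 49 and 63 reads. Its level lay between those of Gja4 and Gja5, and no value of the 3 genes overlapped. The counting interval of Panx1 overlapped that of Gja4 in uterus 2 and that of Gja5 in both uteri, so counting does not settle its place. Panx2 had 2 and 3 reads and Panx3 was listed at 0.

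Structure and position were shared in part. In the GENCODE M1 annotation of NCBIM37, all 7 members had their whole coding sequence in 1 exon, behind at least 1 untranslated exon. A coding sequence in 1 exon was found for 16 of the 20 connexins. The coding sequences ran from 226 codons (Gjb2) to 396 codons (Gjc1). No member overlapped another gene of the table, so its reads cannot be shared with an antisense partner listed there. Coding sequences matched nowhere else in the genome at 95% identity or more over 50 bases. Over the 7 members, the highest identity elsewhere ran from 73.2% (Gjb5, over 142 bases) to 88.1% (Gjb2, over 59 bases at Gja3), and that of Gja1 was 77.4% over 716 bases at Gja6.

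Gja4 and Gjb5 both lie on the minus strand of chromosome 4, and their levels differed. Gja4 exceeded Gjb5 by 23.6-fold in uterus 1 (95% counting interval 7.74 to 117, with Gjb5 at 3 reads) and by 6.95-fold in uterus 2 (3.29 to 16.9). On chromosome 14, Gjb2 lies between Gja3 and Gjb6, with gaps of 40.9 kb and 18.6 kb, and all 3 were under 1 RPKM in both uteri.

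The 2 uteri were then compared gene by gene. Of the members, 5 were higher in uterus 1, and Gjb1 and Gjb5 were higher in uterus 2. On the scale of log2 of RPKM plus 0.1, uterus 2 over uterus 1, the ratios were -0.14 for Gja1, -0.05 for Gjc1, -0.49 for Gja4 and -0.21 for Gja5. None of these 4 members, which are those with a mean of at least 1 RPKM, was at least 2-fold apart, against 2.6% of the 13647 genes with such a mean. Without that filter the ratio was 1.11 for Gjb5, 0.98 for Gjb1 and -0.13 for Gjb2, so that Gjb5 alone was past 2-fold. Of the 17426 genes above 0 in either uterus, 10.6% were past 2-fold without a filter.

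Recovered reads were compared with a two-sided exact binomial test, which compares these 2 libraries and not conditions. At a Benjamini-Hochberg adjusted p under 0.05 the exact binomial test called 0 of the 7 members, against 4.72% of the 15139 genes tested, and 0 members had an unadjusted p under 0.05. The lowest was that of Gja1, with an unadjusted p of 0.0509 and an adjusted p of 0.321 in the exact test. For Gja1 the RPKM ratio of uterus 2 to uterus 1 was 0.905 (95% counting interval 0.819 to 1.00), and for Gja4 it was 0.708 (0.488 to 1.02, adjusted p 0.350 in the exact test). For Gjc1 the ratio was 0.966 (0.796 to 1.17), and for Gja5 0.862 (0.605 to 1.23). The interval of Gjb5 ran from 0.577 to 14.1 and that of Gjb1 from 0.369 to 23.7, and both include a ratio of 1.

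**Figure D3:**
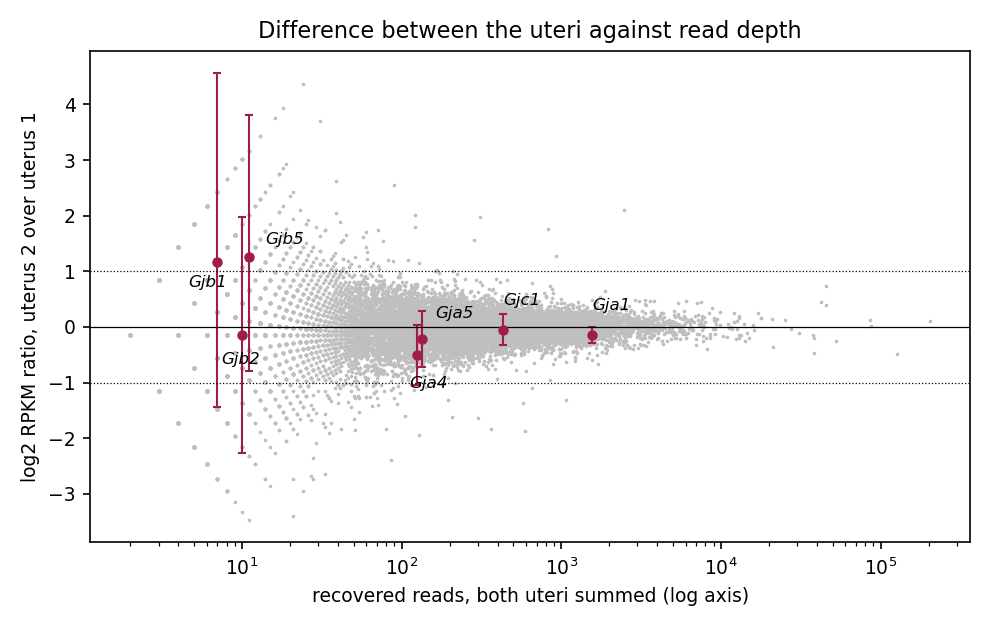
Log2 of the RPKM ratio of uterus 2 over uterus 1 (no pseudocount) against recovered reads of both uteri (log axis) for genes above 0 in both, with the 7 members in red and their 95% counting intervals. Gja1 and Gjc1 sit close to 0, the intervals of Gja4 and Gja5 include 0, and those of Gjb1, Gjb2 and Gjb5 span several log2 units on 7, 10 and 11 reads.

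The tissue's cell types were read from marker lists, to set the connexins beside them. The labelled tissue was present: all 7 stromal and all 7 smooth muscle markers were detected, at medians of 484 ± 52.6 and 282 ± 2.70 RPKM (SD, n = 2). The 8 epithelial markers were all detected, with a median of 39.7 ± 1.37 RPKM (SD, n = 2), while Gjb2 and Gjb1 lay under 1 RPKM in the same libraries. Of the luminal epithelium list, Calb1 was at 77.8 ± 10.2 RPKM and Irg1 at 72.7 ± 2.54 RPKM, whereas Wnt7a was at 1.63 ± 0.0105 RPKM. The 7 endothelial markers had a median of 37.6 ± 1.28 RPKM, among them Pecam1 at 50.8 ± 0.113 RPKM, and the 5 arterial markers one of 3.54 ± 0.0933 RPKM with Sox17 highest at 50.1 ± 2.23 RPKM. Gja4 and Gja5 lay between these 2 medians. Gja4 was the lower in uterus 2, where the summed RPKM of the endothelial list was 224 against 230 in uterus 1 and that of the arterial list 71.1 against 70.2. Of the 7 endothelial markers, Kdr, Tie1 and Emcn were lower in uterus 2 and the other 4 were higher. The exact binomial test called 1 of the 7, Kdr, at 22.9 RPKM in uterus 1 against 16.6 in uterus 2 (adjusted p 0.000189), and 0 of the 5 arterial markers. The pericyte list had a median of 18.0 ± 0.990 RPKM and summed to 209 RPKM in uterus 1 against 195 in uterus 2. The exact test called Pdgfrb (39.8 against 32.1 RPKM, adjusted p 0.00133) and Cspg4 (10.4 against 7.94 RPKM, adjusted p 0.0320). These are 2 of the 5 pericyte genes, against 4.72% of all genes tested, and both were lower in uterus 2. Rgs5 and Abcc9 were also lower in uterus 2, whereas Kcnj8 was higher, at 17.3 RPKM in uterus 1 against 18.7 in uterus 2. The part of endothelial cells and pericytes in the Gja4 values was not tested.

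Cell types outside the uterine wall's main layers were also looked for, since Gjb1, Gjb5 and Gjc3 are known from them. In the Schwann cell list, Mbp was at 1.75 ± 0.0510 RPKM, and the defining marker Sox10 (4 and 6 reads) was under 1 RPKM. The summed RPKM of the 6 Schwann genes was 66.1 in uterus 1 and 76.8 in uterus 2, nearly all of it Pmp22, which other cells also use. Of the hepatocyte list, 1 of 6 genes was detected, Ttr at 4.83 ± 0.789 RPKM, while Alb had 0 and 1 read and Apoa1, Apoa2, Ahsg and Fgb were listed at 0. Of the stratified epithelium list, 1 of 5 was detected, Krt10 at 3.10 ± 0.897 RPKM. Trp63 had 2 reads in uterus 1 and 7 in uterus 2, and Krt5, Krt14 and Dsg3 were listed at 0. The hepatocyte list summed to 4.27 RPKM (uterus 1) and 5.50 RPKM (uterus 2), and the stratified epithelium list to 3.82 and 2.74 RPKM. Most of the latter sum was Krt10, at 3.74 RPKM in uterus 1 and 2.47 in uterus 2, whereas Trp63 was higher in uterus 2. Of the 7 trophoblast and blastocyst genes, none reached 1 RPKM in both uteri, and Cdx2 was listed at 0 in both. Eomes (12 and 21 reads) and Elf5 (8 and 11 reads) had means of 1.09 ± 0.343 and 1.04 ± 0.157 RPKM (SD, n = 2), above 1 RPKM in uterus 2 alone. The part of these cells in the reads of Gjb1 and Gjb5 was not tested.

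**Figure D4:**
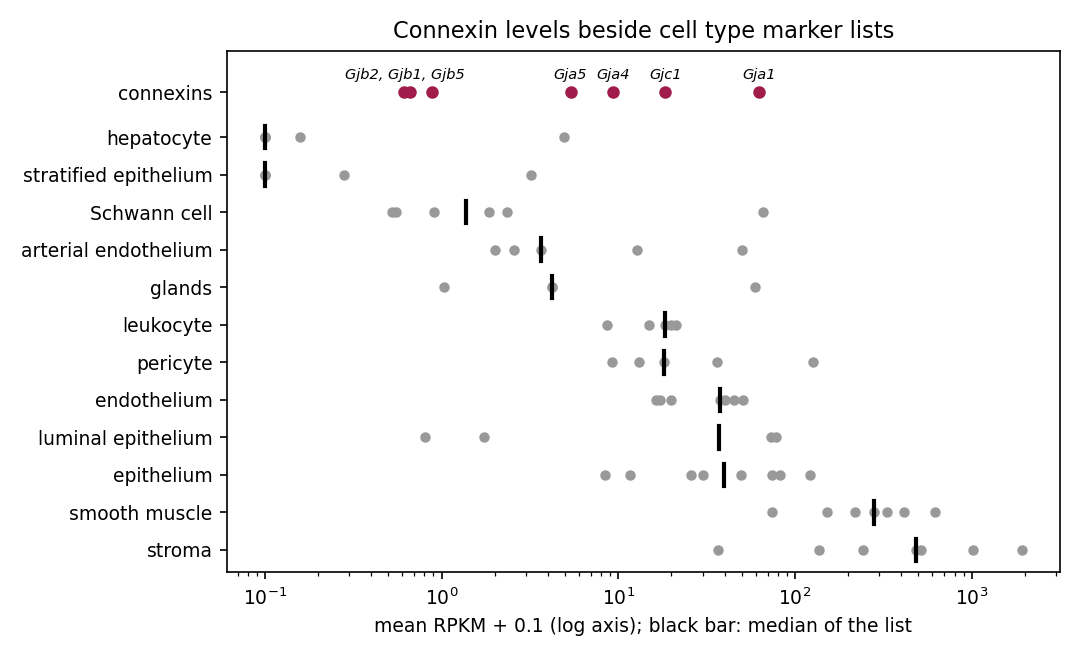
Mean RPKM plus 0.1 (log axis) of each marker gene (grey), the median of each list (black bar) and the 7 connexins (red, top row). The stroma and smooth muscle lists lie highest, Gja1 lies within the range of the epithelial markers and above all 7 endothelial ones, and the hepatocyte and stratified epithelium medians are at 0.

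Of the genes that hold, move, modify or regulate gap junctions or act beside them in contraction, 42 of 44 were detected, against 58.4% of all genes, with a median of 25.8 ± 1.66 RPKM (SD, n = 2). The list was written by role with earlier results of these data known. Among the scaffolds, Cav1, the caveolar coat protein, was at 122 ± 3.66 RPKM, and genes of zonula occludens proteins, a family that binds the tail of connexin 43, were at 33.5 ± 1.47 RPKM (Tjp1) and 5.59 ± 0.00838 RPKM (Tjp3). Cttn was at 49.7 ± 1.76 RPKM and Dbn1, the actin-binding drebrin, at 19.3 ± 0.393 RPKM. Of the adhesion genes, which hold membranes close enough for docking, Ctnnb1 was at 220 ± 2.54 RPKM, Cdh1 at 25.6 ± 1.10 RPKM, Jup at 10.3 ± 1.08 RPKM and Cdh2 at 3.95 ± 0.499 RPKM.

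Among 8 trafficking and turnover genes, the ubiquitin ligase Nedd4, which marks connexin 43 for removal, was highest at 364 ± 10.3 RPKM. The chaperone Erp29 was at 77.3 ± 4.99 RPKM and Tsg101, of the sorting machinery for breakdown, at 31.2 ± 1.70 RPKM. The lowest were Sgsm3 at 6.27 ± 0.113 RPKM, Cnst at 11.1 ± 1.29 RPKM and Eps15 at 20.3 ± 0.440 RPKM. All 10 kinases that phosphorylate connexins were detected. Akt1 was at 74.9 ± 6.31 RPKM, Mapk3 at 48.9 ± 2.52 RPKM and Csnk1d at 46.5 ± 0.165 RPKM, and at the lower end Prkca was at 4.09 ± 0.137 RPKM, Prkce at 9.45 ± 1.09 RPKM and Mapk7 at 11.5 ± 0.0111 RPKM. The secreted partner Nov was at 7.66 ± 0.713 RPKM.

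Of 12 transcriptional regulators tied to connexin genes, 11 were detected. The estrogen receptor Esr1 was highest at 103 ± 5.46 RPKM, then the progesterone receptor Pgr at 72.0 ± 7.90 RPKM and Sp3 at 44.3 ± 6.21 RPKM. The lowest were Fosl1 with 1 read and 0 reads, Fos at 5.58 ± 2.43 RPKM and the repressor Zeb2 at 24.5 ± 0.0583 RPKM. The 4 other AP-1 genes, named after their values were seen because Gja1 holds AP-1 letters, were Jund at 42.1 ± 3.76 RPKM, Jun at 29.5 ± 1.61 RPKM, Fosl2 at 29.0 ± 1.78 RPKM and Junb at 28.1 ± 0.109 RPKM. Between the libraries, the exact binomial test called Sp3 higher in uterus 2 (39.9 against 48.7 RPKM, adjusted p 0.00408) and Pgr lower in uterus 2 (77.5 against 66.4 RPKM, adjusted p 8.26e-05), 2 of 43 partner genes tested, against 4.72% of all genes tested. No partner with a mean of at least 1 RPKM was 2-fold apart. Fosl1 was past that fold only through its 1 read.

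With a single group of 2 libraries there is no series of conditions over which a gene could follow the pattern of a connexin, so no such genes are named. The design text states that the mice were independent, and all spreads here are those of 2 animals with 1 library each.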

How the data were processed

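Whole-uterus RNA of 2 pregnant C57BL/6 females (day 4) was sequenced after poly-A selection, with TruSeq libraries from 1 microgram of RNA, per the labels' protocols. The authors deposited RPKM values. The submitters' processing notes name TopHat, edgeR and build mm9, without versions or roles. The counter, the annotation and any use of strand are not given in the sources used here. Deposited starts count from 0 (12380 of 21034 genes matched to GENCODE M1 start 1 base later, 781 at the deposited base) and are printed counted from 1.

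Reads were recovered from the deposited RPKM. Single-exon genes of known length gave the worth of 1 read in each library, with scaling totals of 3834174 and 4256101, and their 209 and 217 values above 0 were all within 0.001 of a whole read. All 17426 genes above 0 gave whole reads over a whole length (relative tolerance 1e-11). Where a common factor was open, the annotated length set it: 1 for 6 members, and 3 for Gja5, whose smallest length of 1060 bases is under its coding length of 1074. Recovered reads summed to 3836438 and 4267337, and 80.4% of lengths lay within 5% of the annotated ones. Intervals are exact at 95% (Poisson for levels, binomial for ratios) and hold counting error alone, as PCR copies are not separate molecules.

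Log2 ratios used a pseudocount of 0.1 RPKM, which understates the change of low genes, and a mean of 1 RPKM or more. The exact binomial test needed 6 reads in sum, with Benjamini-Hochberg adjustment over all genes tested. The steps were tested on simulated data. Members, lists and tests were chosen with earlier results of these data known. Of each family and partner list, every gene was named up to 6 genes, otherwise the highest 3 and lowest 3, with any at least 2-fold apart. Some genes of these lists are not reported here. The gland marker Cxcl15 was not analysed here. The gland list had a median of 4.14 ± 1.34 RPKM, the leukocyte list 17.5 ± 0.295 and the ovary and oviduct list 0.744 ± 0.0549 (SD, n = 2). Tools were Python 3.11.15, numpy 2.4.6, pandas 2.3.3, scipy 1.17.1, matplotlib 3.10.9 and blast 2.17.0. Alternatives were other thresholds, pseudocounts, filters and folds, TPM, each library alone and other read settings.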

Additional observations from a re-analysis of the deposited data

How the results depend on the processing

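The 2 libraries of 1 group limit every value here: the spread rests on 2 animals, and the beta connexins rest on 2 to 8 reads a library. The TPM scale multiplied each level by about 2.37 by construction, to 147 (Gja1), 43.4 (Gjc1), 21.9 (Gja4), 12.5 (Gja5), 1.85 (Gjb5), 1.34 (Gjb1) and 1.22 (Gjb2), in the same order. It put 2 of 7 members past 2-fold, Gjb1 (log2 ratio 1.08, against 0.98 on RPKM) and Gjb5 (1.19, against 1.11), where 4.93% of 14922 genes were past it. On that scale the 3 beta connexins pass the filter on low values and the pseudocount weighs less. On RPKM without the filter 1 of 7 members was past 2-fold, Gjb5, against 8.12% of all 22740 genes. Thresholds of 2 and 5 RPKM each left 1 of the other connexin and pannexin genes detected, Panx1, against 3. Detected members numbered 3 to 6 over all 6 alternatives, and 5 with uterus 2 alone, where Gjb5 passed. Counting intervals in place of ranges left 3 neighbouring pairs overlapping, against 2. The step from a mean of 2 to either library is under 1 SD by construction. Leaving out one library gave 59.2 to 65.4 RPKM for Gja1, 18.0 to 18.7 for Gjc1, 7.66 to 10.8 for Gja4, 4.88 to 5.66 for Gja5, 0.459 to 1.10 for Gjb5, 0.349 to 0.785 for Gjb1 and 0.489 to 0.542 for Gjb2. The exact binomial test called 0 members under all 3 alternative read settings. These could hardly change that result. Among the members, the smallest possible reads differed for Gja5 alone. Other minimums of reads changed only which genes were tested and adjusted for, and a minimum of 20 left 4 members. All 28 alternative log2 ratios stayed within their counting interval. They rescale the same values, and the intervals of Gjb1, Gjb2 and Gjb5 are wide, so this is a weak check. No paired analysis was possible because both libraries belong to a single group.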

Other observations

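Gja1 and the genes of uterine contraction stood at unlike levels. Oxtr, the oxytocin receptor, was at 2.63 (uterus 1) and 2.83 (uterus 2) RPKM on 46 and 55 reads. Ptgfr, the receptor for prostaglandin F, was at 6.97 and 5.16 RPKM on 118 and 97 reads, and Ptgs2, the inducible prostaglandin synthase, had 6 and 3 reads. These 3 genes are grouped with Gja1 as contraction-associated genes because they are known to rise together before birth. On day 4 of pregnancy Gja1 lay above each of them in both uteri, and no value overlapped.

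Genes of the decidua, the tissue in which Gja1 is known to be abundant after implantation, were near the detection limit. Alpl was at 2.36 ± 0.0351 RPKM (SD, n = 2), Wnt4 at 1.67 ± 0.242 RPKM, and Bmp2 at 2.39 and 1.03 RPKM on 23 and 11 reads. Prl8a2 and Prl3c1, products of mature decidua, were listed at 0 in both uteri.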
